A study of Mus musculus with 2 samples.

Results

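Cholesterol and fatty acid synthesis genes were examined in implantation sites, the segments of pregnant mouse uterus that hold a conceptus with the decidua around it. The set has 33 genes, chosen by gene symbol: 17 enzymes of the sterol branch, 12 enzymes of the fatty acid branch and 4 regulators of both. Each probe set, a group of probes read out as 1 signal, was assigned to a member where its only gene symbol was that member's. There were 60 such probe sets for 31 members, among 12393 genes that the arrays cover in this way. Acat2 and Insig1 had none, so no signal is given for them, and they enter only the counts of promoter windows.

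The Cbs null group is 1 array of RNA from sites of females that carry the homozygous Cbs null genotype, and the control group is 1 array of RNA from sites of females labelled control. Both groups were 4 months old, of C57Bl/6J X OLA129 background, and on day 8 of pregnancy. Cbs encodes cystathionine beta-synthase, which condenses homocysteine with serine. The comparison asks which transcripts differ between the sites of these females. The labels leave out which part of Cbs is deleted, the genotype of the conceptus and whether RNA was pooled over animals or over sites. Each genotype has a single array, so no spread between females could be measured and no test was made, and all values below describe these 2 arrays. In whole tissue, fewer cells of a type and less RNA per cell cannot be told apart.

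Cells make cholesterol and fatty acids from the same precursor, acetyl-CoA. The sterol branch runs through mevalonate, isoprenoids, squalene and lanosterol to cholesterol. The fatty acid branch uses NADPH to build palmitate, which elongases lengthen and desaturases provide with double bonds. Transcription of both branches is driven by the SREBP factors, encoded by Srebf1 and Srebf2, which Scap carries from the endoplasmic reticulum to the Golgi when sterol is low. In decidua, lipid is stored in stromal cells, and cholesterol is also the precursor of steroid hormones.

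The SREBP factors act together with NF-Y, which binds CCAAT, and the stretches just before the transcription starts of 5 members show how this letter pattern is spread over both branches. Me1, Acss2 and Fasn are fatty acid branch members with higher signal on the Cbs null array, and Hmgcs1 and Cyp51 are sterol branch members with slightly lower signal. The 180 bases before the start are given from RefSeq (build GRCm38.p6), 5′ to 3′ on the gene's strand, and capitals mark CCAAT or its reverse complement ATTGG. Me1 is at chr9:86695915-86696094 (minus strand), Acss2 at chr2:155517863-155518042 (plus), Fasn at chr11:120824548-120824727 (minus), Hmgcs1 at chr13:119690171-119690350 (plus) and Cyp51 at chr5:4104698-4104877 (minus).
Me1: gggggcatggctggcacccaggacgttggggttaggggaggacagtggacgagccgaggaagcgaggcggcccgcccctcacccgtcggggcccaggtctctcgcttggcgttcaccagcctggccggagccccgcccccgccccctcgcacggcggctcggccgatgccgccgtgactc
Acss2: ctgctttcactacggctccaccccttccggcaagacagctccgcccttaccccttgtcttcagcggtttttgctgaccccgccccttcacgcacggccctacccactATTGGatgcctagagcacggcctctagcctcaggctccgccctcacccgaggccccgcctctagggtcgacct
Fasn: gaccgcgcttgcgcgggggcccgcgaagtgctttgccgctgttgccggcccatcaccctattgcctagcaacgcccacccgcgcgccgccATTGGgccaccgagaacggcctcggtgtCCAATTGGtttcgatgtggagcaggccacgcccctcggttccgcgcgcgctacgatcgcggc
Hmgcs1: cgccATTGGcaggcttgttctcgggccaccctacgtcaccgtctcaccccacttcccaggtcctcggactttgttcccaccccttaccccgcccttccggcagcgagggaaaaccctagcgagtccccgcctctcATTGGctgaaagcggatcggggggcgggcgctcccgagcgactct
Cyp51: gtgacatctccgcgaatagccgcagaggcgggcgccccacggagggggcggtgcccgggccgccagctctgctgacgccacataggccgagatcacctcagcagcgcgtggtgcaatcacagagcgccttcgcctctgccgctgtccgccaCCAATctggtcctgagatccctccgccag

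The Fasn stretch held 3 matches to CCAAT, between 90 and 59 bases before the start, of which a pair overlaps. Hmgcs1 had 2 matches, Acss2 and Cyp51 had 1 each, and the Me1 stretch had none. Me1 has 2 starts, and CCAAT does occur in the promoter window of 1 of them, outside the stretch given. RefSeq promoter windows, which reach from 250 bases before a start to 50 after it, were found for 27 members, with 34 windows in all because some genes have several starts. Fads1, Fdft1, Fdps, Scd1, Scd2 and Sqle were not among them. On either strand CCAAT occurred in 13 of 17 sterol branch windows, 6 of 10 fatty acid branch windows and 4 of 7 regulator windows, and in 37.4% of all 32851 windows. The GC box GGGCGG, the site of Sp1, occurred in 14 of 17, 5 of 10 and 6 of 7 windows in that order, and in 35.7% of all windows. The E-box CACGTG was in 2, 1 and 3 of them, against 7.15% of all windows. A sterol regulatory element written as TCACNCCAC was found in 1 member window, that of Hmgcs1, and in 1.24% of all windows. These are letter matches and say nothing on binding.

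In the fatty acid branch some compared genes were higher on the Cbs null array and others lay close to the control level. Sterol branch genes and regulators were spread around the control level, more of them below it than above. A gene was compared where the mean of both signals of its brightest probe set was at least 70.5, the median over all probe sets, and its ratio is that of this probe set, on the log2 scale as Cbs null over control. That left 28 members among 7079 genes. Of 11 fatty acid branch members compared, 10 had a ratio above 0 (90.9%, against 55% of all genes compared), among them Scd2 at 0.00, and the median was 0.44 (quartiles 0.04 and 0.63). Of 14 sterol branch members, 10 had a ratio below 0 (71.4%, against 44.9% of all genes), and the median was -0.09 (quartiles -0.20 and 0.10). The 3 regulators had a median of -0.09, and all 7079 genes had a median of 0.02 (quartiles -0.11 and 0.16).

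At least 1.5-fold higher were 3 fatty acid branch members, Scd1, Acss2 and Me1 (27.3%, against 2.46% of all genes), and no sterol branch member or regulator. No member was 1.5-fold lower, against 1.33% of all genes. Scd1 alone was at least 2-fold higher in its brightest probe set, against 0.622% of all genes, and none was 2-fold lower, against 0.283%. The fatty acid branch median depends on which members are counted, because 6 of the 11 lay at 0.44 or above and 5 at 0.06 or below. The ratio of 0.44, that of Elovl6, was above that of 94.8% of all genes compared. The median was 0.25 without Scd1 and 0.06 over the 8 members that passed a filter at the 75th percentile. With no signal filter it was 0.25, because Acaca entered with both signals raised to the same floor, which fixes its ratio at 0.

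**Figure D1:**
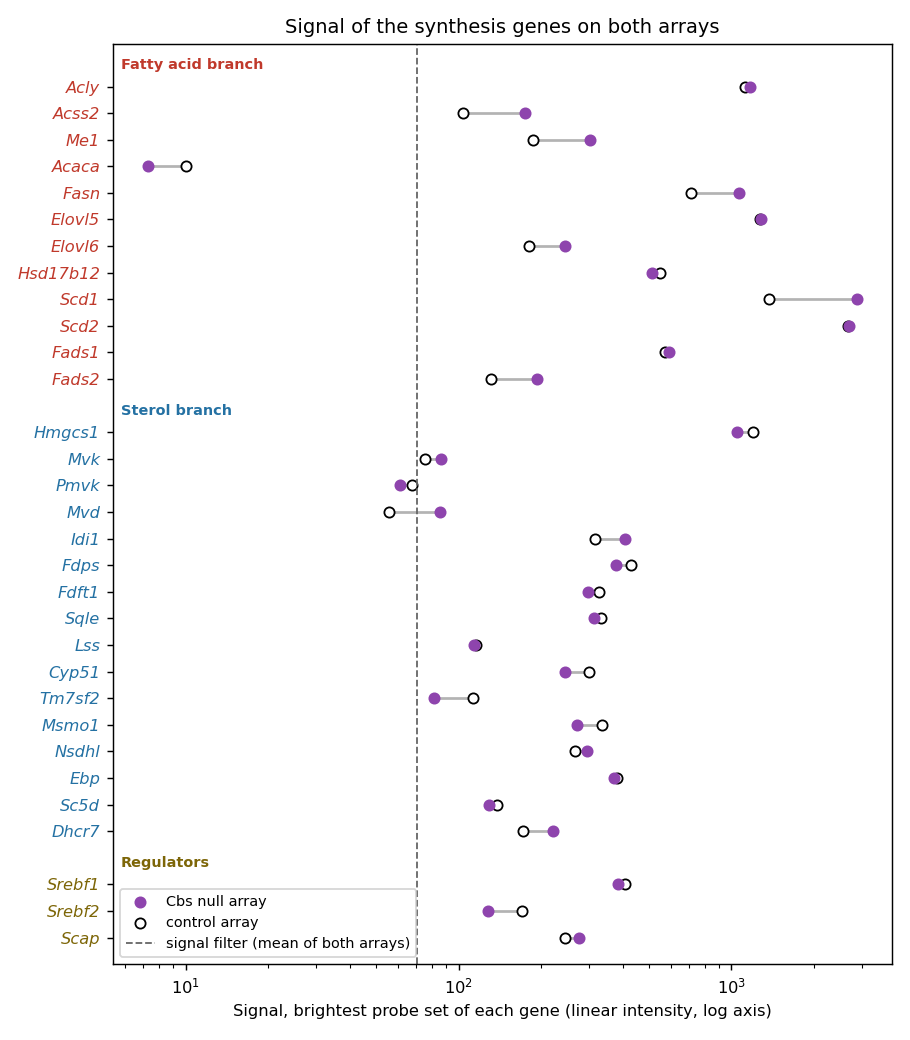
Signal of the brightest probe set of each of 31 members (linear intensity on a log axis) on the Cbs null array (filled) and the control array (open), with the signal filter of 70.5 as a dashed line. The filled points lie to the right of the open ones for Scd1, Me1, Acss2, Fasn, Elovl6 and Fads2. Most pairs of the sterol branch lie closer together, but Mvd was 1.54-fold higher, with its mean just under the filter, and Tm7sf2 1.39-fold lower.

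Acetyl-CoA and NADPH for fatty acids are supplied by Acly, Acss2 and Me1. Acss2, which makes acetyl-CoA from acetate, read 174.6 on the Cbs null array and 104.3 on the control array, 1.67-fold higher. Its other probe set read 163.7 on the Cbs null array and 103.5 on the control array, a log2 ratio of 0.66, so both probe sets were over 1.5-fold higher. Me1, the cytosolic malic enzyme that yields NADPH, read 302.9 on the Cbs null array and 188.2 on the control array, 1.61-fold higher. The other Me1 probe set, only slightly dimmer, read 321.7 on the Cbs null array and 130.8 on the control array, 2.46-fold higher, and was the highest ratio of any kept member probe set, at 1.30. The direction was thus shared by both Me1 probe sets and the size was not. Acly, which splits citrate into acetyl-CoA and oxaloacetate, read 1170.8 on the Cbs null array and 1119.3 on the control array in its brightest probe set, a log2 ratio of 0.06. That probe set may match several transcripts, by its suffix, and the 2 other kept probe sets of Acly had ratios of 0.28 and 0.46.

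The synthase step was represented by Fasn alone. Fasn, the multienzyme that builds palmitate, read 1066.0 on the Cbs null array and 714.0 on the control array, 1.49-fold higher, just under the 1.5-fold limit. Its ratio of 0.58 was above that of 97.4% of all genes compared. Acaca, the acetyl-CoA carboxylase that makes malonyl-CoA, had a single probe set, which read 7.3 on the Cbs null array and averaged 8.7 over both arrays. Both signals lie under the floor of 14.3, the 25th percentile of all values, so its ratio is not measured here.

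Elongation gave a mixed picture. Elovl6, which lengthens palmitate, read 245.3 on the Cbs null array and 181.3 on the control array, 1.35-fold higher, and its other probe set had a ratio of 0.57. Elovl5, which acts on polyunsaturated chains, read 1286.3 on the Cbs null array and 1268.0 on the control array, a ratio of 0.02, and its other probe set had -0.13. Hsd17b12, the ketoacyl-CoA reductase of the elongation cycle, read 509.8 on the Cbs null array and 545.9 on the control array. Its ratios of -0.10 and -0.14 made it the lowest member of the branch.

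Among the desaturases, Scd1 and its neighbour Scd2 differed in their ratios. Both place a double bond in saturated chains at the delta-9 position, and their genes lie in 1 cluster on chromosome 19 with Scd4 between them in the RefSeq gene order. Scd1 read 2887.1 on the Cbs null array and 1378.8 on the control array, 2.09-fold higher, a ratio of 1.07 above that of 99.5% of all genes compared. Its other probe set read 145.5 on the Cbs null array and 63.2 on the control array, 2.30-fold higher, and passed the filter through its Cbs null value. Scd2 read 2691.5 on the Cbs null array and 2682.7 on the control array, a ratio of 0.00, and its other probe sets had 0.18 and 0.12. Scd3 of the same cluster had 14.1 on the Cbs null array and 15.3 on the control array, close to the floor. How far probes of 1 Scd gene read transcripts of another was not tested.

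The desaturases of polyunsaturated chains are encoded side by side. Fads2, the delta-6 desaturase, read 193.5 on the Cbs null array and 131.5 on the control array, 1.47-fold higher, and its other probe set had a ratio of 0.27. Fads1, the delta-5 desaturase, read 591.0 on the Cbs null array and 569.2 on the control array, a ratio of 0.05 in its single probe set. Fads3, the next gene in the cluster, had -0.31.

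**Figure D2:**
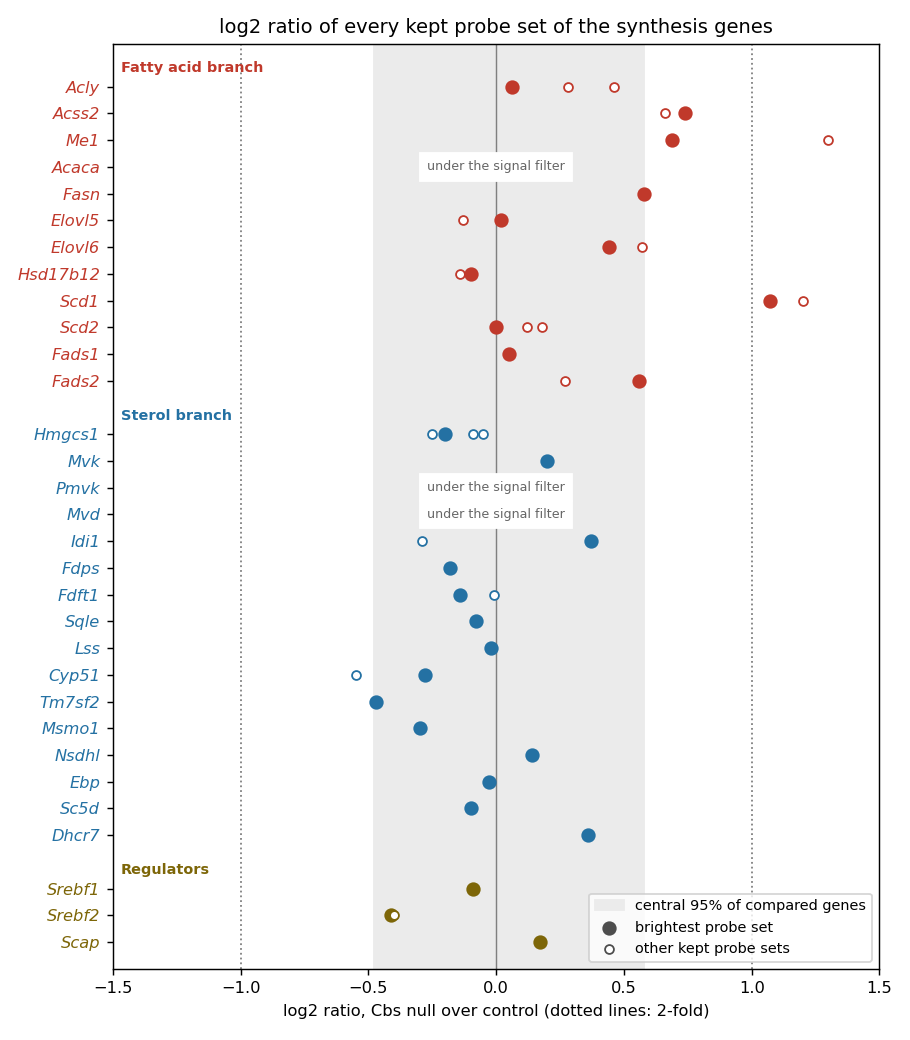
log2 ratio of Cbs null over control for all 46 kept probe sets of 28 members, with the brightest probe set of each gene filled and the others open. The grey band holds the central 95% of all compared genes, from -0.48 to 0.58, and Scd1, Me1 and Acss2 lie to its right while the sterol branch lies within it except for 1 open point of Cyp51.

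Over probe sets rather than genes the branches parted in the same way, since 19 of 22 kept probe sets of the fatty acid branch had a ratio above 0 (52.9% of all 11315 kept probe sets did) and 16 of 20 of the sterol branch had one below 0 (47% of all did). Probe sets of 1 gene read the same transcripts and are not separate evidence. Of 14 members with several kept probe sets, Idi1 and Elovl5 had ratios of opposite sign. How often this occurs over all genes was not counted, so it cannot be called frequent or rare. Over 2284 genes of the arrays with several kept probe sets, the difference in ratio between the 2 brightest had an SD of 0.30. Single ratios below that size are within the spread between probe sets, and larger ones can be too. The 2 Idi1 ratios, 0.37 and -0.29, differed by more than 1 SD.

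In the sterol branch, the entry step and the mevalonate steps differed little. Hmgcs1, which makes HMG-CoA, read 1044.9 on the Cbs null array and 1200.2 on the control array, and its 4 probe sets had ratios from -0.25 to -0.05. All 4 were thus slightly lower on the Cbs null array. Mvk, mevalonate kinase, read 86.2 on the Cbs null array and 75.2 on the control array, a ratio of 0.20. Pmvk, phosphomevalonate kinase, read 61.1 on the Cbs null array and 67.8 on the control array and was under the filter. Mvd, the decarboxylase that follows it, read 85.3 on the Cbs null array and 55.5 on the control array, 1.54-fold higher, but its mean of 70.4 lay just under the filter of 70.5 and its other probe set had -0.09.

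The isoprenoid and squalene steps had ratios between -0.18 and 0.37. Idi1, isopentenyl diphosphate isomerase, read 406.8 on the Cbs null array and 315.8 on the control array, the highest ratio of the branch at 0.37. Its other probe set read 157.5 on the Cbs null array and 192.3 on the control array, a ratio of -0.29, so Idi1 has no settled direction. Fdps, farnesyl diphosphate synthase, had 378.8 on the Cbs null array and 429.8 on the control array, a ratio of -0.18. Fdft1, squalene synthase, had a ratio of -0.14, and its other kept probe set had -0.01. Sqle, squalene epoxidase, read 314.3 on the Cbs null array and 333.1 on the control array, and Lss, which closes the ring to lanosterol, read 114.3 on the Cbs null array and 116.2 on the control array. Their ratios of -0.08 and -0.02 were close to the median of all genes.

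The lowest ratios of the branch were those of enzymes that act on lanosterol and its first products. Tm7sf2, a sterol delta-14 reductase, read 81.5 on the Cbs null array and 113.1 on the control array, 1.39-fold lower, in a single probe set near the filter. Cyp51, the lanosterol demethylase, read 246.6 on the Cbs null array and 300.3 on the control array, 1.22-fold lower, and its other kept probe set was 1.46-fold lower. Msmo1, the sterol C4-methyl oxidase, read 272.1 on the Cbs null array and 334.3 on the control array, 1.23-fold lower. Later steps differed less or the other way. Nsdhl, the dehydrogenase of the same demethylation, had 0.14, Ebp, the sterol isomerase, -0.03, and Sc5d, the sterol desaturase, -0.10. Dhcr7, which makes cholesterol from its last precursor, read 222.3 on the Cbs null array and 172.8 on the control array, 1.29-fold higher.

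Srebf2, which encodes the SREBP factor that mainly serves the sterol branch, read 128.7 on the Cbs null array and 170.8 on the control array, 1.33-fold lower. Its other probe set read 109.8 on the Cbs null array and 144.4 on the control array, so both ratios were close, at -0.41 and -0.40. Srebf1, whose main liver product serves the fatty acid branch, read 382.9 on the Cbs null array and 406.9 on the control array, a ratio of -0.09. Scap read 276.2 on the Cbs null array and 245.6 on the control array, a ratio of 0.17. SREBP factors are activated by cleavage, which these transcript signals do not measure.

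**Figure D3:**
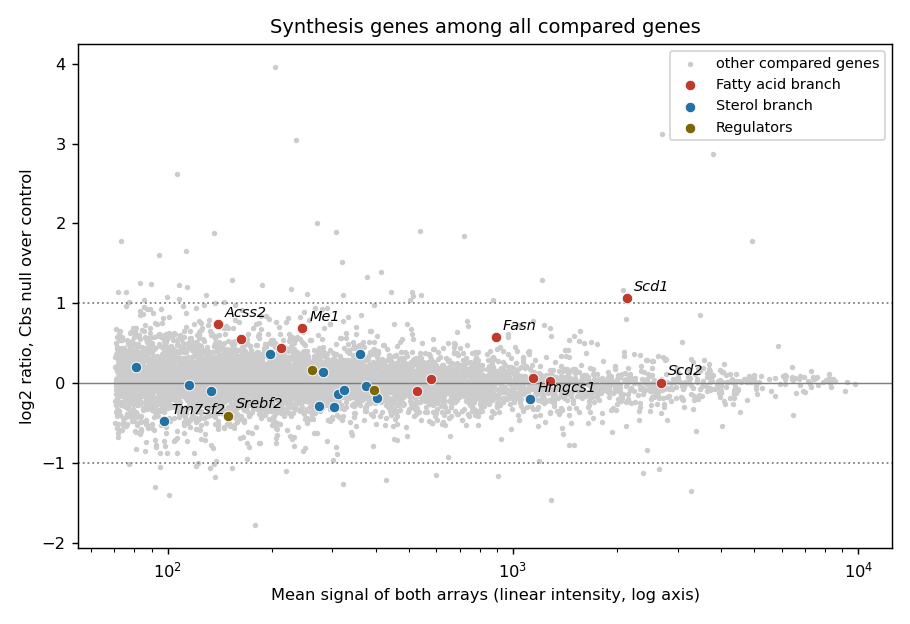
log2 ratio of Cbs null over control against the mean signal of both arrays (linear intensity on a log axis) for 7079 compared genes, with the members coloured by branch. Scd1, at 1.07, and Fasn, at 0.58, stand above most genes of like signal, while Scd2 and Hmgcs1 lie at 0.00 and -0.20.

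The spread of ratios narrows with signal, from a central 95% range of -0.53 to 0.66 in the dimmest tertile of compared genes to -0.41 to 0.46 in the brightest. Scd1 and Fasn, both in the brightest tertile, had ratios above 0.46. Quantile normalization, centring on the median and removal of a loess trend moved no member's ratio by more than 0.04.

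Of 55 other genes of the pathway 28 were compared, and they had a median of 0.08, with 18 above 0 (64.3%, against 55% of all genes). At least 1.5-fold higher were 2 of them, Thrsp and Mylip (7.14%, against 2.46% of all genes), and none was 1.5-fold lower. Thrsp, a regulator of fatty acid synthesis, read 610.7 on the Cbs null array and 278.0 on the control array, a ratio of 1.14, with 0.75 in its other probe set. Mylip, a ubiquitin ligase induced by sterol-sensing nuclear receptors, read 351.7 on the Cbs null array and 182.9 on the control array, a ratio of 0.94. The partners of fatty acid elongation had lower ratios than Elovl6, with Tecr at 0.18, Hacd1 at -0.08, Hacd2 at -0.10 and Hacd3 at -0.32. The other kept probe sets of Hacd3 had 0.04 and -0.21. Cytochrome b5 and its reductase, which pass electrons to the desaturases, had 0.13 for Cyb5a and -0.02 for Cyb5r3. Dgat2, which completes triglycerides, had 0.52, with 0.13 in its other probe set, and Dgat1 had 0.07.

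Genes of sterol handling had ratios between -0.28 and 0.34 in their brightest probe sets. Abca1 and Abcg1, which export cholesterol from cells, had 0.15 and 0.29, and the other kept probe set of Abca1 had -0.11. Npc1, which moves cholesterol out of lysosomes, had 0.34 and Scarb1, a receptor of high density lipoprotein, 0.32. The other kept probe sets of Scarb1 had 0.09 and 0.06. Stard4, a sterol carrier, had -0.22, and Ggps1, which makes the isoprenoid for protein prenylation, -0.28. The other kept probe set of Ggps1 had -0.49. Hsd17b7, the sterol ketoreductase, was under the filter at 52.7 on the Cbs null array and 56.4 on the control array.

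Fat cell markers were also higher on the Cbs null array, and fat cells express Scd1, Fasn, Acly and Me1 strongly. Of 15 markers, 13 were on the arrays and 8 were compared. Of these 8, 7 were above 0 (87.5%, against 55% of all genes), with a median of 0.40. The summed signal of the 13 markers was 9066.0 on the Cbs null array and 6585.1 on the control array, a 1.38-fold difference. Most of it came from Car3 (3624.3 on the Cbs null array and 2948.2 on the control array) and Fabp4 (2711.8 and 1549.2). The summed signal of the 12 fatty acid branch members was 11126.1 on the Cbs null array and 8893.2 on the control array, 1.25-fold. Adipoq, the hormone of adipocytes, read 924.6 on the Cbs null array and 560.9 on the control array, and Fabp4 had a ratio of 0.81. Retn and Lipe had 0.61 and 0.51, though the control signal of Lipe lay below the filter, and without it 6 of 7 markers were above 0 with a median of 0.30. Car3 had 0.30, Lpl 0.22, Cd36 0.01 and Plin4 -0.50. Lep, Cidea and Aqp7 lay under the floor on both arrays. The part of fat cells in the higher fatty acid branch signals was not tested.

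Marker lists of other cell types differed in direction on the same arrays. Epithelial markers had a median of 0.64, with 12 of 13 compared above 0 (92.3%, against 55% of all genes). The summed signal of all 15 was 24222.0 on the Cbs null array and 7137.2 on the control array. Without Prss28, Prss29 and Spink1, which hold most of that signal, the other 12 genes summed to 5056.4 on the Cbs null array and 3441.9 on the control array, 1.47-fold. Macrophage markers had a median of 0.48 over 10 genes and a sum of 8670.2 on the Cbs null array and 6149.9 on the control array. Luteal cell markers had a median of 0.34 over 3 genes, with Hsd3b1 under the floor and Star, at -0.36, under the filter. The sums over the 5 luteal markers on the arrays were 542.2 on the Cbs null array and 446.8 on the control array. Of the yolk sac endoderm markers 4 were compared, with a median of 0.95. The sums over the 11 markers on the arrays were 1805.0 on the Cbs null array and 1283.8 on the control array. Apoa4, Apob and Apom were under the floor, and the control signals of Afp and Ttr were themselves below the filter. The 2 other compared genes, Rbp4 and Dab2, had a median of 0.06. Natural killer cell markers had a median of -0.98 over 11 compared genes, 10 of them below 0 (90.9%, against 44.9% of all genes). Klrk1 had 0.05, and Ncr1, at 0.26, was under the filter. The sums over the 12 genes on the arrays were 8703.6 on the Cbs null array and 18937.9 on the control array. Of the sebaceous gland list, Scd3 and Mc5r were on the arrays and neither passed the filter, with sums of 18.9 on the Cbs null array and 20.2 on the control array. Decidual markers, which identify the labelled tissue, were present on both arrays, with 9 of 10 compared and a median of 0.02. The sums over all 10 were 11087.7 on the Cbs null array and 11976.1 on the control array. Of the decidual markers, Bmp2, at -1.21, and Tdo2, at -0.84, were over 1.5-fold lower, and Prl8a2 had 0.52. The part of these cell types in the ratios of the synthesis genes was not tested.

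**Figure D4:**
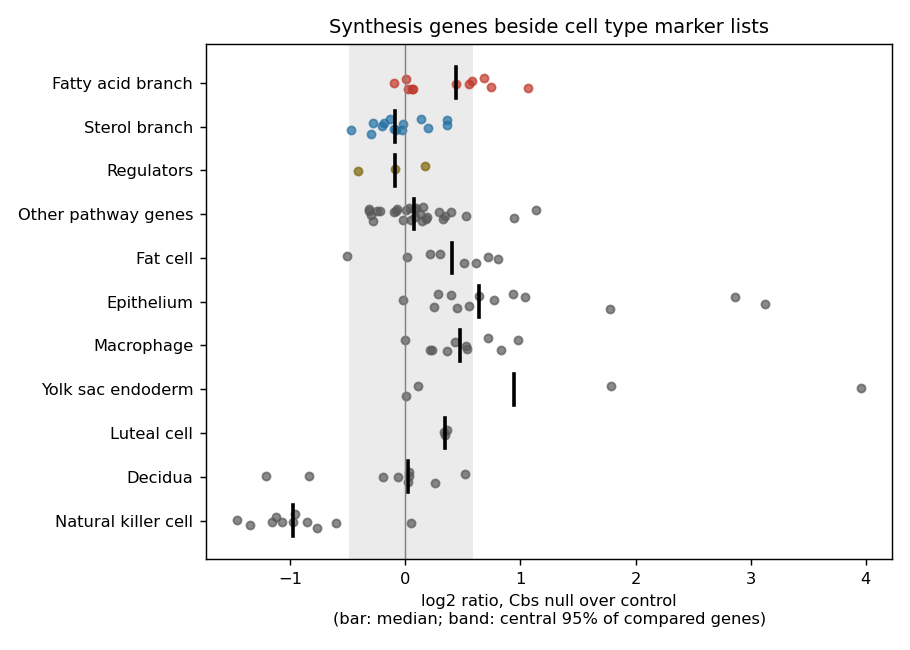
log2 ratio of Cbs null over control for each compared gene of the synthesis branches, the other pathway genes and 7 marker lists, with the median as a bar and the central 95% of compared genes as a grey band. The fatty acid branch, at a median of 0.44, lies among the luteal cell, fat cell, macrophage and epithelial lists, at 0.34, 0.40, 0.48 and 0.64. The yolk sac endoderm list lies at 0.95, the decidual list at 0.02 and the sterol branch at -0.09.

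The ratio of 3′ to 5′ signal, which rises as RNA degrades, was 1.15 on the Cbs null array and 1.07 on the control array for Gapdh, and 1.61 on the Cbs null array and 1.54 on the control array for beta-actin. The median signal over all probe sets was 71.4 on the Cbs null array and 68.8 on the control array. The number of arrays limits the precision of every ratio given.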

How the data were processed

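RNA from dissected sites (Tri reagent, then an RNeasy column) was made into biotinylated cRNA by the standard Affymetrix procedure, per the labels' protocols. The authors deposited 1 linear intensity for each probe set of an array. GCOS 1.4 is named as the software, per the submitters' processing notes, while its algorithm, the genome build of the probe sets and any detection calls are not stated there. Both arrays had the same 2% trimmed mean, 200.08, and no further scaling was applied.

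Of 22690 probe sets, 64 controls were set aside. Of the other 22626, 20380 had a single symbol in the platform annotation, 691 several and 1555 none, and 20351 of the single symbols were matched by identifier to a RefSeq table of GRCm38.p6. Values under 14.3 were raised to it. Probe sets with a mean signal of at least 70.5 were kept (11315). Each gene took its brightest probe set, and the result is the log2 ratio with no p-value. Suffixes s and x mark probe sets that may match several transcripts.

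All members were named. Of other pathway genes, those named by rule were Hsd17b7 and those kept at 1.5-fold or more, and further ones are examples chosen after their values were seen. Some items are not reported here. The members, lists and limits were chosen with earlier results of these data known. Alternatives changed the scaling (quantile, median, loess with span 0.3), the floor, the filter and the choice of probe set. The scripts were tested on simulated data. Python 3.11 was used.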

Additional observations from a re-analysis of the deposited data

How the results depend on the processing

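Across 11 alternatives, 296 of 298 member ratios moved by less than 0.30, the SD of the difference between probe sets of a gene. Many member ratios are themselves smaller than that. Changes of the floor or the filter could not move a compared member's ratio, since its probe set stayed the same and both signals lay above the floor. No ratio of 1.5-fold or more changed sign. With the median over probe sets, Me1 had 0.99 and Idi1 0.04. The sterol branch median ranged from -0.14 to -0.08 and the Scd1 ratio from 1.05 to 1.13. The fatty acid branch median was 0.06 with the filter at the 75th percentile and, as an alternative chosen after seeing the data, 0.25 without Scd1. It was 0.25 with no filter, where Acaca enters with a ratio of 0 that the floor fixes. The regulator median turned to 0.04 with the filter at the 75th percentile, which left 2 genes. The count of sterol branch members at least 1.5-fold higher, a limit also chosen after seeing the data, was 1 (Mvd) with the filter at the 25th percentile, with no filter and with suffix s and x probe sets left out (6.25%, 6.25% and 6.67%, against 5.1%, 4.07% and 2.59% of all genes). The background of all genes moved too, with 149 genes 2-fold higher and 79 lower at the 25th percentile filter and with no filter, 23 and 8 at the 75th percentile filter, and 13 lower with a pseudocount. Dim genes such as Acaca and Mvd are limited by signal over background.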

Other observations

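Some genes listed beside the fatty acid branch or the regulators, outside the compared set, had higher signal on the Cbs null array in dim probe sets. They were picked after their values were seen. Acacb, the mitochondrial acetyl-CoA carboxylase, read 52.2 on the Cbs null array and 26.2 on the control array, under the filter, a log2 ratio of 0.99. Mlxipl, the carbohydrate response factor ChREBP, which with the SREBP factors drives lipogenic genes in mouse liver, read 34.4 on the Cbs null array and 4.0 on the control array. The control value lies under the floor of 14.3, so no fold is given. Pparg, the adipocyte regulator, read 24.1 on the Cbs null array and 11.1 on the control array, also with a control value under the floor. Pgd, which yields NADPH in the pentose phosphate pathway, did not share the ratio of Me1, with 1125.7 on the Cbs null array and 1334.5 on the control array, a log2 ratio of -0.25. Its other kept probe sets had -0.16, -0.47 and -0.01. Only the last of these, unlike the brightest, has no suffix for several transcripts.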
